A study of Mus musculus with 8 samples.

Results

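The genes described here are 36 genes of glycolysis and of the cellular response to low oxygen, listed by name. Each was matched to the probe sets that carry a single gene symbol in the platform annotation, and was represented by the probe set with the highest mean over the 8 arrays, which gave 33 measured genes out of 17097 in all. Gpi1, Pgam1 and Eno1 were not analysed here. The 33 comprised 12 glycolytic enzymes, 5 transporters and regulators of glycolytic flux, and 16 hypoxia-inducible genes outside glycolysis or parts of the oxygen sensor.

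The arrays profiled basal epidermal cells from the back skin of CD1 mice, an outbred stock, with 1 mouse per array, so the spread between arrays is a spread between mice. EXPD4 denotes 3 mice whose skin had been mechanically expanded for 4 days. TPA denotes 2 mice treated with the phorbol ester 12-O-tetradecanoylphorbol-13-acetate, a classical stimulus of epidermal proliferation and inflammation. CTRL denotes 3 mice whose cells are labelled as control. The labels give neither a genotype, age or sex of the mice nor a dose or time for TPA. In every group 300 cells that carried ITGA6 on the surface and lacked CD34 were sorted, a gate that takes interfollicular and infundibular keratinocytes and leaves out the CD34-bearing bulge, and their cDNA was amplified for 25 cycles before hybridisation. Values are log2 signals after RMA (robust multi-array average), so a difference of -1 is a fall by a factor of 2, and they do not rank the abundance of different genes.

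Glycolysis turns glucose into pyruvate in the cytosol, and lactate dehydrogenase and the monocarboxylate transporters carry the surplus on as lactate. When oxygen is scarce, prolyl hydroxylases (Egln1, Egln3) no longer mark HIF-1 alpha for destruction, and the stabilised factor pairs with ARNT, binds short elements with the core ACGTG or GCGTG and raises transcription of glucose transporters, glycolytic enzymes, angiogenic factors and mitochondrial regulators. HIF-1 alpha is governed mostly at the level of the protein, which these arrays do not measure, and the epidermis is a tissue of low oxygen tension even at rest.

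Replicate arrays correlated at 0.990 to 0.995 over all genes, EXPD4 with CTRL arrays at 0.980 to 0.982 and TPA with CTRL arrays at 0.962 to 0.965. The basal keratins Krt5 and Krt14 lay between 13.2 and 13.3 on all 8 arrays, and Cd34 lay under the background limit, the 95th percentile of 79 receptor genes taken as silent in skin (6.37 to 6.55 by array). Of the 6 basal genes, these keratins among them, 2 fell in EXPD4 and 2 in TPA, as given below. A marker set ran against what the TPA label would lead a reader to look for. Odc1, an ornithine decarboxylase that TPA is known to induce in mouse skin, read 9.82, 9.70 and 9.99 in EXPD4 arrays, 8.93 and 9.05 in TPA arrays and 11.33, 11.36 and 11.33 in CTRL arrays. Krt6a, a keratin of wounded and hyperproliferative epidermis, read 12.44 and 12.65 in TPA arrays, against 13.29, 13.24 and 13.16 in CTRL arrays. All directions below follow the labels as given. If the TPA and CTRL labels were exchanged, those of TPA minus CTRL would turn round and the comparisons of EXPD4 with TPA and with CTRL would change places.

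The promoters of these genes were searched for the hypoxia response core. The table of RefSeq promoter windows used here (GRCm38.p6) was matched by 31 of the 33 genes, the others being Ndrg1 and Bnip3l, and the 250 bases before the start were read for ACGTG or GCGTG on either strand. A match was present in 28 of the 31 genes (90.3%), compared with 11226 of 27025 genes in the whole table (41.5%). A gene with several windows counted if any of them held a match, and these genes had more windows per gene than the whole table. By window, 38 of 50 (76.0%) held a match, compared with 38.6% of all 32851 windows. The member windows had a median G+C content of 60.4%, compared with 52.4% for all windows. ACGTG alone was present in 18 of the 31 (58.1%), compared with 18.5% of all genes. Part of the ACGTG matches lie inside CACGTG, the E-box read by MYC and other factors, which was present in 6 of the 31 (19.4%) and in 6.86% of all genes. Among the glycolytic enzymes 11 of 12 held a match, and among the hypoxia targets outside glycolysis 12 of 14. A match is a description of the letters, not evidence of binding.

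Shown first are the promoters of Slc16a3 and Bnip3, the genes with the largest differences in TPA minus CTRL, then 2 glycolytic enzymes with smaller differences and Gys1, a gene with a large difference and no match in the window. They were picked after the results were seen. Each runs 5′ to 3′ towards the gene's start, with the matches in capitals, and matches that overlap form 1 run of capitals. Ldha had 2 windows, and the 1 shown was picked for its number of matches. Each of the other genes shown had 1 window. Slc16a3 stands at chr11:120948817-120949066 on the plus strand, Bnip3 at chr7:138909507-138909756 on the minus strand, Ldha at chr7:46845554-46845803, Pgk1 at chrX:106186850-106187099 and Gys1 at chr7:45434589-45434838, all 3 on the plus strand.
Slc16a3: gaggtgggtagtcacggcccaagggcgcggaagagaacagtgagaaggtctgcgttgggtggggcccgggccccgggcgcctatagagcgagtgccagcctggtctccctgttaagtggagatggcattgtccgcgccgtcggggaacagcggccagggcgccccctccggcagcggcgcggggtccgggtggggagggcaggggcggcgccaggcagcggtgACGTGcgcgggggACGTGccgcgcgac
Bnip3: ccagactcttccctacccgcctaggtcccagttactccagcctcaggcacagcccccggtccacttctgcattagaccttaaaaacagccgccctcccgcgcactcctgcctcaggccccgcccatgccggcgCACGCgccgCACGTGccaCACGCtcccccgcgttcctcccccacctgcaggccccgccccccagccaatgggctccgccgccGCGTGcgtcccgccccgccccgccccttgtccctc
Ldha: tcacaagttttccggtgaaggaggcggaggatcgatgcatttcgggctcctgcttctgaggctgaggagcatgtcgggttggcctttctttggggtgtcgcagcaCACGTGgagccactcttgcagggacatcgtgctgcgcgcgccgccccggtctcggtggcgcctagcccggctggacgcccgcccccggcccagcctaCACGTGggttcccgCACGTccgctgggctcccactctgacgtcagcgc
Pgk1: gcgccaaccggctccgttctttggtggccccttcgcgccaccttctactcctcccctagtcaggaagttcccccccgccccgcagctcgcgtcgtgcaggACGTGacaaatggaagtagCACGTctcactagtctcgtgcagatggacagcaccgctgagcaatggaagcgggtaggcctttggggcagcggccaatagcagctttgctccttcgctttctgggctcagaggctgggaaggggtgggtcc
Gys1: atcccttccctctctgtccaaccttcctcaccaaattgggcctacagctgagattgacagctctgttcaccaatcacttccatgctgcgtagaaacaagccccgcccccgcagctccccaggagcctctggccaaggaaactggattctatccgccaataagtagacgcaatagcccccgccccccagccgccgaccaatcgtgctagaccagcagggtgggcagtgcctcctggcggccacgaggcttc
Slc16a3 and Pgk1 held 2 matches each, Bnip3 and Ldha 5 each, and Gys1 none in this window. A CACGTG counts as 2 matches, 1 per strand. The 5 matches of Bnip3 therefore lay in 4 runs of capitals and the 5 of Ldha in 3. The difference of Ldha was the smaller in both comparisons with CTRL, as given below. A relation of differences to the number of matches was not tested.

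The first comparison asks how these genes stood in basal cells on day 4 of skin expansion relative to control skin. In EXPD4 arrays 17 of the 33 genes fell and none rose, at an adjusted p under 0.05 in limma, where 5.78% of all genes fell and 5.69% rose. At an unadjusted p under 0.05, 25 were lower and 2, Pfkm and Egln1, were higher. The 3 EXPD4 arrays lay wholly below the 3 CTRL arrays for 26 of the 33, compared with 14.5% of all genes. The genes that fell furthest were hypoxia targets outside glycolysis, among them Ndrg1, Vegfa, Bnip3 and Gys1, together with the lactate exporter Slc16a3. These are the 5 genes that fell by at least a factor of 2, where 1.22% of all genes did. The median difference was -0.54 over the 16 hypoxia targets (10 fell), -0.27 over the 12 glycolytic enzymes (5 fell) and -0.24 over the 5 transporters and flux regulators (2 fell), and 0.01 over all genes. Because RNA of sorted cells was measured in bulk, fewer cells of a kind and less RNA per cell cannot be told apart.

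The number of calls depended on single arrays. It was 10 without CTRL replicate 2, and 11 without EXPD4 replicate 2 or without EXPD4 replicate 3. Hk2, Slc16a3, Vegfa, Bnip3, Ddit4, Ndrg1, Mxi1, Ak4 and Gys1 passed under all 16 alternative settings. Each of the other 8 missed the threshold in at least 1 setting. Tpi1, Pgk1 and Bnip3l each did so in 7 of the 16, the omission of any 1 EXPD4 or CTRL array among them, and Egln3 in 6. Pfkl, Pfkp and Pfkfb3 did so on leaving out at least 1 array, and Hif1a on averaging its probe sets.

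The second comparison asks the same of TPA-treated skin. In TPA arrays 24 of the 33 genes fell and 1, Pfkm, rose, where 10.6% of all genes fell and 10.2% rose. Both TPA arrays lay below every CTRL array for 28 of the 33, compared with 25.4% of all genes. Slc16a3 and Bnip3 fell furthest, followed by Gys1, Ndrg1, Mxi1, Vegfa and Ak4, and these 7 fell by at least a factor of 2, where 2.56% of all genes did. Of the 12 glycolytic enzymes 10 fell, with a median difference over the 12 of -0.48. Of the 16 hypoxia targets 11 fell (median -0.70), and of the 5 transporters and flux regulators 3 fell (median -0.61), while the median of all genes was -0.03. The counts of falls in TPA include Higd1a, called on its brightest probe set only and given no direction below. Leaving out 1 array at a time gave 21 to 25 calls. The 2 comparisons share the CTRL arrays, so they are not independent of each other.

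**Figure D1:**
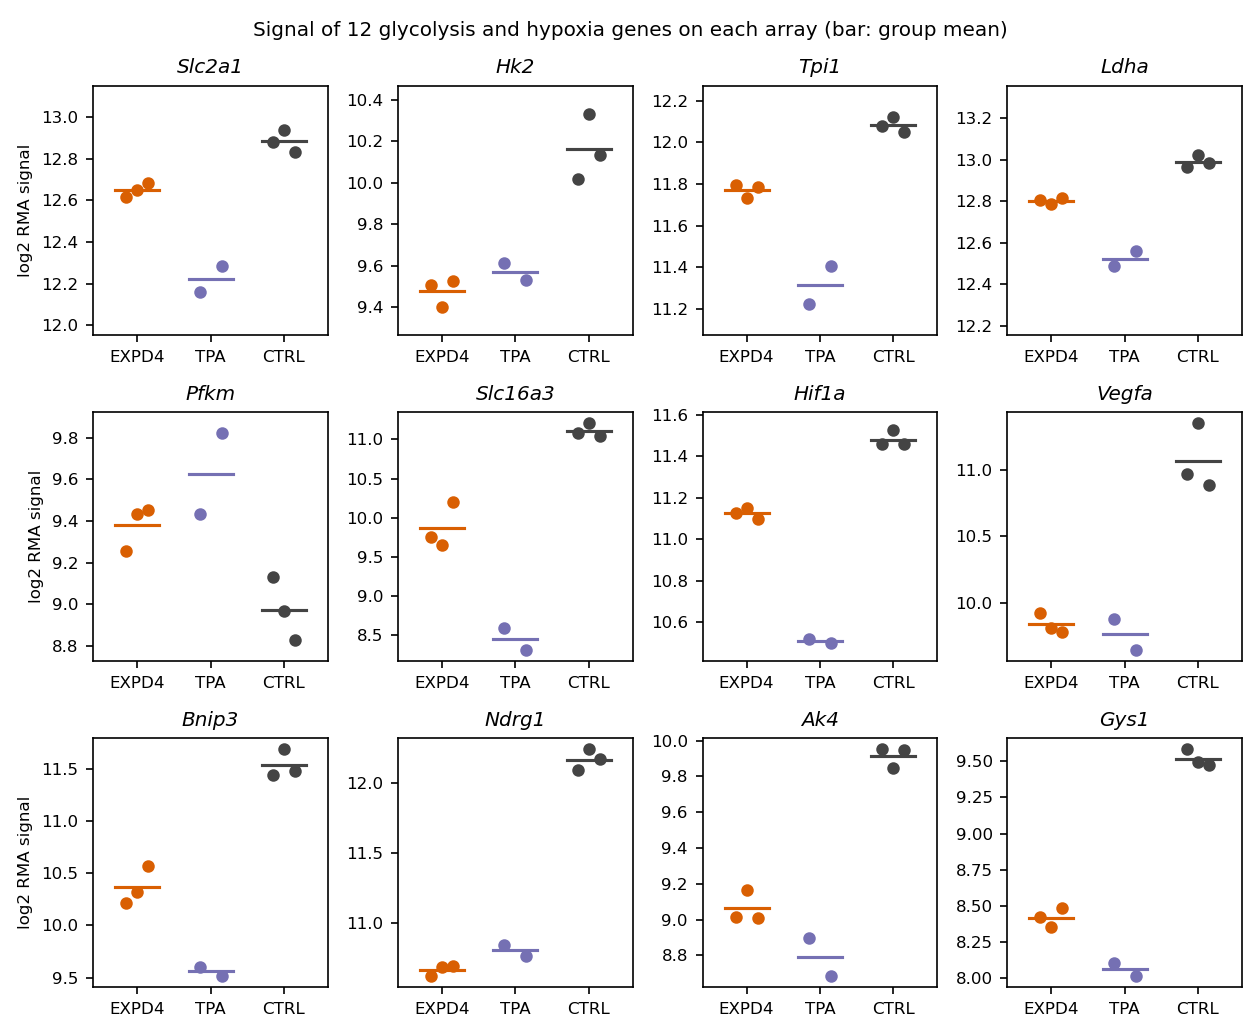
Log2 RMA signal of 12 of the genes on each array, 1 panel per gene with its own vertical scale, which does not start at 0, with points for arrays and a bar for the group mean, in the order EXPD4, TPA and CTRL. In every panel but that of Pfkm the 3 CTRL arrays lie above all EXPD4 and TPA arrays, and for Pfkm they lie below.

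The preparatory steps of glycolysis include its controlled enzymes. Hk2, the inducible hexokinase that traps glucose as its phosphate, read 9.51, 9.40 and 9.53 in EXPD4 arrays, 9.62 and 9.53 in TPA arrays and 10.02, 10.33 and 10.13 in CTRL arrays. Every EXPD4 and TPA array lay below every CTRL array. Hk2 fell by 0.68 ± 0.09 (SE) in EXPD4 (adjusted p = 0.002) and fell by 0.59 ± 0.10 in TPA (adjusted p = 0.00387). Hk1, the constitutive hexokinase, differed by -0.29 ± 0.09 in EXPD4 (adjusted p = 0.0664) and fell by 0.53 ± 0.10 in TPA (adjusted p = 0.00485).

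The phosphofructokinases, which catalyse the committed step, did not move as a family. The liver-type Pfkl fell by 0.34 ± 0.07 in EXPD4 and fell by 0.59 ± 0.08 in TPA, and the platelet-type Pfkp fell by 0.35 ± 0.07 in EXPD4 and fell by 0.35 ± 0.08 in TPA. The muscle-type Pfkm read 9.25, 9.43 and 9.45 in EXPD4 arrays, 9.43 and 9.82 in TPA arrays and 9.13, 8.97 and 8.83 in CTRL arrays. CTRL arrays were lowest for this isoform, with no overlap. Pfkm rose by 0.65 ± 0.14 in TPA (1.57-fold, adjusted p = 0.00949), a call that missed the threshold without TPA replicate 2 (0.46, adjusted p = 0.0614). Its difference in EXPD4 was 0.41 ± 0.12 (adjusted p = 0.0688). Pfkp in TPA missed the threshold without TPA replicate 1 (adjusted p = 0.0834).

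Aldolase A (Aldoa) differed by -0.23 ± 0.07 in EXPD4 (adjusted p = 0.0631) and fell by 0.44 ± 0.08 in TPA (adjusted p = 0.00384), and the weakly detected Aldoc passed the test in neither. Triose phosphate isomerase (Tpi1), which interconverts the products of the split sugar, read 11.79, 11.73 and 11.79 in EXPD4 arrays, 11.22 and 11.41 in TPA arrays and 12.08, 12.12 and 12.05 in CTRL arrays. The 3 groups were separate, with TPA lowest. Tpi1 fell by 0.31 ± 0.07 in EXPD4 (adjusted p = 0.0251) and fell by 0.77 ± 0.08 in TPA (1.70-fold lower, adjusted p = 0.000263), the largest fall among the glycolytic enzymes in TPA. In EXPD4 Tpi1 missed the threshold in 7 of the 16 alternative settings. Its second probe set, above the background limit on all 8 arrays, fell further, by 0.55 ± 0.09 in EXPD4 (adjusted p = 0.00508), and in TPA it differed by -1.15 ± 0.10 (adjusted p = 0.000106).

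The enzymes of the payoff phase gave small differences with little spread. Pgk1, the first of the enzymes that make ATP, read 12.17, 12.18 and 12.25 in EXPD4 arrays, 11.87 and 11.94 in TPA arrays and 12.44, 12.48 and 12.44 in CTRL arrays. Ldha, which reduces pyruvate to lactate, read 12.81, 12.79 and 12.81 in EXPD4 arrays, 12.49 and 12.56 in TPA arrays and 12.97, 13.02 and 12.98 in CTRL arrays. For both genes the groups did not overlap and TPA was lowest. Pgk1 fell by 0.26 ± 0.07 in EXPD4 (adjusted p = 0.035) and fell by 0.55 ± 0.07 in TPA (adjusted p = 0.000814). In EXPD4 Pgk1 missed the threshold in 7 of the 16 alternative settings (adjusted p up to 0.118). Ldha differed by -0.19 ± 0.06 in EXPD4 (adjusted p = 0.0968) and fell by 0.47 ± 0.07 in TPA (adjusted p = 0.0017). Pyruvate kinase (Pkm), which makes the last ATP of the pathway, followed the same order, with -0.17 ± 0.07 in EXPD4 (adjusted p = 0.145) and -0.49 ± 0.07 in TPA (adjusted p = 0.00157).

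Gapdh, often used as a housekeeping control, read 13.38, 13.38 and 13.42 in EXPD4 arrays, 13.26 and 13.24 in TPA arrays and 13.48, 13.50 and 13.45 in CTRL arrays. These values lie close to the highest signal of any gene on any array. Its fall of 0.23 ± 0.07 in TPA (adjusted p = 0.044) missed the threshold in 12 of the 16 alternative settings, the omission of any 1 array among them (adjusted p up to 0.154), and its difference in EXPD4 was -0.09 ± 0.06 (adjusted p = 0.483).

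Glucose entry and lactate exit differed in size. Slc2a1 (GLUT1), the main glucose transporter of keratinocytes, read 12.62, 12.65 and 12.68 in EXPD4 arrays, 12.16 and 12.29 in TPA arrays and 12.88, 12.94 and 12.83 in CTRL arrays. Slc16a3 (MCT4), the hypoxia-inducible exporter of lactate, read 9.75, 9.65 and 10.20 in EXPD4 arrays, 8.58 and 8.30 in TPA arrays and 11.08, 11.21 and 11.05 in CTRL arrays. Both genes had 3 separate groups with TPA lowest. Slc2a1 differed by -0.24 ± 0.07 in EXPD4 (adjusted p = 0.0631) and fell by 0.66 ± 0.08 in TPA (adjusted p = 0.00046). Slc16a3 fell by 1.24 ± 0.15 in EXPD4 (2.37-fold lower, adjusted p = 0.00103) and fell by 2.67 ± 0.16 in TPA (6.37-fold lower, adjusted p = 1.49e-05), the largest differences of this group of genes in TPA and the second largest in EXPD4.

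Of the regulators of flux, Pfkfb3, which makes the allosteric activator of phosphofructokinase, read 8.36, 8.31 and 8.09 in EXPD4 arrays, 8.03 and 8.27 in TPA arrays and 8.70, 8.92 and 8.66 in CTRL arrays. CTRL arrays were highest, with no overlap. Pfkfb3 fell by 0.51 ± 0.11 in EXPD4 (adjusted p = 0.019) and fell by 0.61 ± 0.12 in TPA (adjusted p = 0.00823), and missed the threshold in TPA without TPA replicate 1 (adjusted p = 0.0651). Its relative Pfkfb4 passed in neither. Pdk1, a pyruvate dehydrogenase kinase, read 9.85, 10.15 and 10.06 in EXPD4 arrays, 9.76 and 9.42 in TPA arrays and 9.95, 10.05 and 9.81 in CTRL arrays. EXPD4 and CTRL arrays overlapped, and both TPA arrays were lower. Pdk1 differed by 0.08 ± 0.12 in EXPD4 (adjusted p = 0.781) and by -0.34 ± 0.13 in TPA (adjusted p = 0.111). Another of its probe sets, above the background limit on all 8 arrays, gave 0.31 ± 0.19 in TPA (adjusted p = 0.327), so the probe sets of Pdk1 differ in sign there.

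The oxygen sensor itself came next. Hif1a, which encodes HIF-1 alpha, read 11.13, 11.15 and 11.10 in EXPD4 arrays, 10.52 and 10.50 in TPA arrays and 11.46, 11.52 and 11.46 in CTRL arrays. The groups were separate and the spread within each was small. Hif1a fell by 0.35 ± 0.06 in EXPD4 (adjusted p = 0.00737) and fell by 0.97 ± 0.07 in TPA (1.96-fold lower, adjusted p = 3.54e-05). A second, dimmer Hif1a probe set differed by -0.18 in EXPD4 and -0.05 in TPA and passed in neither. Egln3, the hydroxylase that HIF itself induces, fell by 0.40 ± 0.09 in EXPD4 (adjusted p = 0.0186) and differed by -0.30 ± 0.10 in TPA (adjusted p = 0.0604). Its second probe set, also above the limit on all 8 arrays, gave -0.12 in EXPD4 (adjusted p = 0.513) and 0.02 in TPA, and the EXPD4 call was lost on averaging the probe sets (-0.26, adjusted p = 0.0627).

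Egln1, the main hydroxylase, read 11.25, 11.32 and 11.29 in EXPD4 arrays, 11.03 and 11.19 in TPA arrays and 11.09, 11.11 and 10.99 in CTRL arrays. It was higher in every EXPD4 array than in any CTRL array, and TPA and CTRL arrays overlapped. Its difference was 0.22 ± 0.07 in EXPD4 (adjusted p = 0.0943) and 0.05 ± 0.08 in TPA (adjusted p = 0.744). Its other probe set gave -0.03 in EXPD4 and -0.47 in TPA, and the difference in TPA passed (adjusted p = 0.00316), so the probe sets of Egln1 do not give 1 answer for TPA.

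Among secreted factors, Vegfa, which draws blood vessels towards poorly oxygenated tissue, read 9.93, 9.81 and 9.78 in EXPD4 arrays, 9.88 and 9.64 in TPA arrays and 10.97, 11.35 and 10.88 in CTRL arrays. CTRL arrays stood above all others, and EXPD4 and TPA arrays overlapped. Vegfa fell by 1.23 ± 0.13 in EXPD4 (2.35-fold lower, adjusted p = 0.00061) and fell by 1.31 ± 0.14 in TPA (2.47-fold lower, adjusted p = 0.000314). Its second probe set fell in both comparisons too, by 1.34 in EXPD4. Adm, a vasodilator peptide, read 7.31, 7.35 and 7.06 in EXPD4 arrays, 7.84 and 7.77 in TPA arrays and 7.75, 8.44 and 7.61 in CTRL arrays. EXPD4 arrays were lowest and TPA arrays lay within the CTRL range. Adm differed by -0.69 ± 0.20 in EXPD4 (adjusted p = 0.0578) and by -0.13 in TPA (adjusted p = 0.748).

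Among the mitochondrial and stress genes, 6 of 9 fell in EXPD4 and 7 of 9 in TPA, where the count includes Higd1a, whose probe sets disagree. Ndrg1, a differentiation and stress gene used as a marker of hypoxia, read 10.62, 10.68 and 10.69 in EXPD4 arrays, 10.84 and 10.76 in TPA arrays and 12.09, 12.24 and 12.17 in CTRL arrays. Bnip3, a mitochondrial receptor for mitophagy, read 10.22, 10.32 and 10.57 in EXPD4 arrays, 9.60 and 9.51 in TPA arrays and 11.44, 11.69 and 11.48 in CTRL arrays. Both stood above all other arrays in CTRL, while TPA was the lowest group for Bnip3 and EXPD4 the lowest for Ndrg1. Ndrg1 fell by 1.51 ± 0.07 in EXPD4 (2.84-fold lower, adjusted p = 2.43e-05), the largest difference of these genes in that comparison, and fell by 1.37 ± 0.08 in TPA (2.58-fold lower, adjusted p = 1.23e-05). Bnip3 fell by 1.16 ± 0.11 in EXPD4 (2.24-fold lower, adjusted p = 0.000378) and fell by 1.97 ± 0.12 in TPA (3.93-fold lower, adjusted p = 1.58e-05). Its relative Bnip3l fell less, by 0.33 ± 0.08 in EXPD4 and by 0.55 ± 0.09 in TPA. In EXPD4 Bnip3l missed the threshold in 7 of the 16 alternative settings.

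Ak4, a mitochondrial adenylate kinase, read 9.01, 9.16 and 9.01 in EXPD4 arrays, 8.90 and 8.68 in TPA arrays and 9.95, 9.85 and 9.95 in CTRL arrays. Mxi1, a MAX partner that antagonises MYC, read 9.23, 9.36 and 9.47 in EXPD4 arrays, 9.27 and 8.77 in TPA arrays and 10.43, 10.37 and 10.20 in CTRL arrays. For both genes CTRL arrays stood above all others. Ak4 fell by 0.85 ± 0.09 in EXPD4 (adjusted p = 0.000501) and fell by 1.12 ± 0.10 in TPA (adjusted p = 7.96e-05), and Mxi1 fell by 0.98 ± 0.13 in EXPD4 (adjusted p = 0.00209) and fell by 1.32 ± 0.15 in TPA (adjusted p = 0.00039). Ddit4 (REDD1), an inhibitor of mTORC1, fell by 0.70 ± 0.10 in EXPD4 and fell by 0.86 ± 0.11 in TPA. Ankrd37 and the histone demethylase gene Kdm3a passed in neither comparison, with differences between -0.34 and 0.19. Higd1a, a regulator of the respiratory chain, fell by 0.54 ± 0.09 in TPA (adjusted p = 0.00349) on its brightest probe set and differed by -0.21 in EXPD4. Its 2 other probe sets went the other way, by 0.50 and 0.44 in EXPD4 (adjusted p = 0.00793 and 0.0341) and by 0.55 and 0.30 in TPA (adjusted p = 0.00457 and 0.125), so no direction is given for Higd1a beyond its place in the counts of brightest probe sets.

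The last role is glycogen synthesis. Gys1, the glycogen synthase of most tissues outside liver, read 8.42, 8.35 and 8.48 in EXPD4 arrays, 8.11 and 8.02 in TPA arrays and 9.58, 9.49 and 9.47 in CTRL arrays. The 3 groups were separate, and CTRL stood farthest from the others. Gys1 fell by 1.10 ± 0.07 in EXPD4 (2.14-fold lower, adjusted p = 6.31e-05) and fell by 1.45 ± 0.08 in TPA (2.74-fold lower, adjusted p = 9.19e-06). The branching enzyme gene Gbe1 was under the background limit on all 8 arrays, and its call in TPA (adjusted p = 0.00716) therefore gives no fold.

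**Figure D2:**
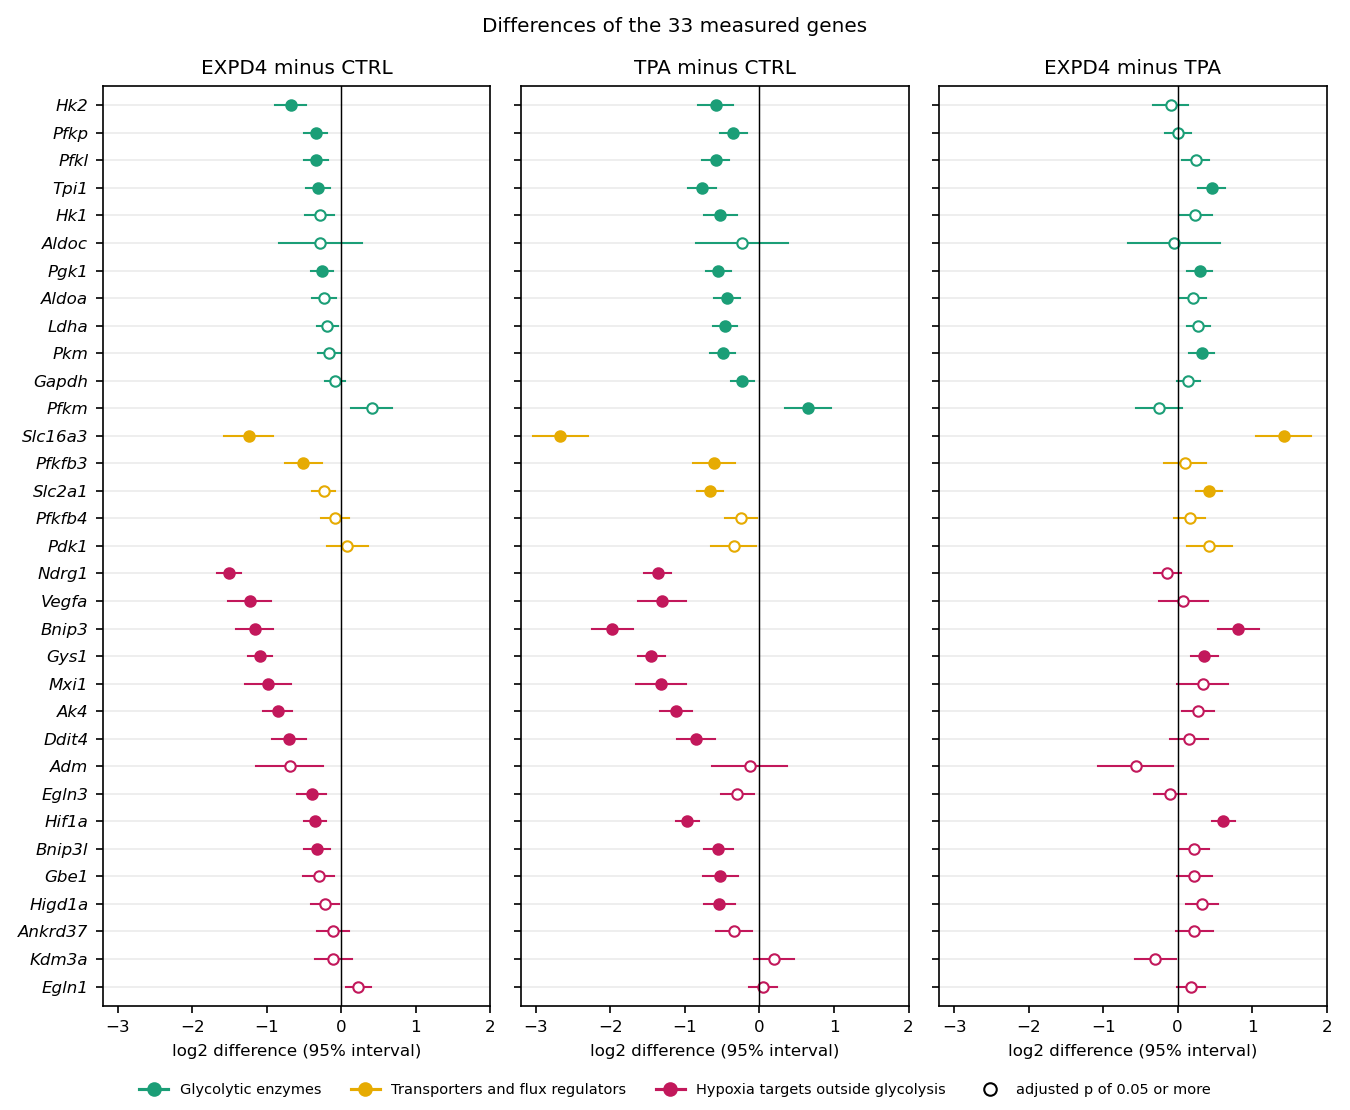
Log2 difference of each measured gene with its 95% interval from limma, in panels for EXPD4 minus CTRL, TPA minus CTRL and EXPD4 minus TPA on 1 scale, with filled points at an adjusted p under 0.05 and colours for the roles. In the first panel the glycolytic enzymes lie between -0.68 and 0.41 and the hypoxia targets outside glycolysis between -1.51 and 0.22.

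The contrast between enzymes and other hypoxia targets was one of size and of range. On the brightest probe set of each gene no glycolytic enzyme fell by a factor of 2 in either comparison, while 4 of the 16 hypoxia targets did in EXPD4 and 6 of 16 in TPA. The second probe set of Tpi1 did pass a factor of 2 in TPA, as given above. In TPA the share of called genes was not smaller among the enzymes, with 10 of 12 falling beside 11 of 16 hypoxia targets. Those 11 include Higd1a, whose probe sets disagree, and Gbe1, under the background limit. No test of the difference between the lists was run. Probe set brightness differed between the lists: mean signal over the arrays ran from 7.18 to 13.4 for the enzymes and from 5.06 to 11.8 for the hypoxia targets, and the effect of brightness on the size of a fold was not tested. Of the 14 genes with a mean signal of 11 or more, 6 fell in EXPD4 and 13 in TPA, where 13.3% and 24.3% of the 798 genes that bright fell. The EXPD4 arrays lay wholly below the CTRL arrays for 13 of the 14, compared with 220 of the 798. The TPA arrays did for 13 of the 14, compared with 318 of the 798. Among these bright genes the medians of the 9 enzymes and the 4 hypoxia targets were -0.26 and -0.28 in EXPD4 and -0.49 and -0.75 in TPA. In EXPD4 the medians of the enzymes and the hypoxia targets were thus closer among the bright genes than over the whole lists, and in TPA they were not. The 4 bright hypoxia targets include Egln1 and Higd1a, whose probe sets disagree.

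**Figure D3:**
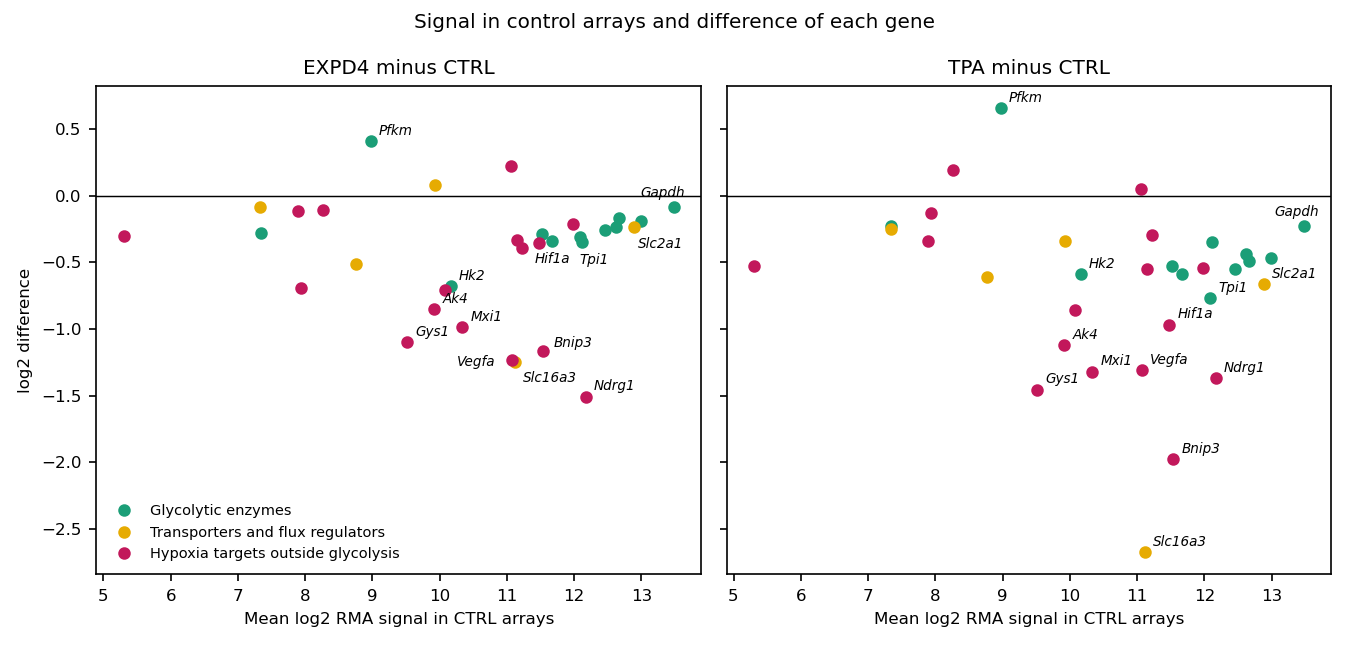
Mean log2 RMA signal in the CTRL arrays (horizontal) against the log2 difference (vertical) of each measured gene, for EXPD4 minus CTRL at the left and TPA minus CTRL at the right, coloured by role. Most glycolytic enzymes sit at bright signals with small differences, and Slc16a3, Bnip3, Ndrg1, Vegfa and Gys1 lie below -1 in both panels.

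Set against each other, EXPD4 and TPA arrays differed at fewer of these genes. In EXPD4 relative to TPA, 8 of the 33 were higher and none was lower, where 3.16% of all genes were higher and 2.81% lower. At an unadjusted p under 0.05, 16 were higher and 2 lower. The 3 EXPD4 arrays lay above both TPA arrays for 20 of the 33, compared with 21.8% of all genes. Among genes with a mean signal of 11 or more, they did for 12 of 14 members and for 314 of all 798. The 8 were the enzymes Tpi1 (0.46 ± 0.08, adjusted p = 0.015), Pkm (0.32 ± 0.07, adjusted p = 0.0363) and Pgk1 (0.29 ± 0.07, adjusted p = 0.0488), the transporters Slc16a3 (1.43 ± 0.16, 2.69-fold higher, adjusted p = 0.00225) and Slc2a1 (0.43 ± 0.08, adjusted p = 0.016), and Hif1a (0.61 ± 0.07, adjusted p = 0.00219), Bnip3 (0.81 ± 0.12, 1.76-fold higher, adjusted p = 0.00739) and Gys1 (0.36 ± 0.08, adjusted p = 0.0354). The median difference was 0.22 for the enzymes and for the hypoxia targets alike, and 0.03 for all genes. Ndrg1 and Vegfa passed no test here, with differences of -0.14 (95% interval -0.32 to 0.04) and 0.08 (-0.25 to 0.40), which do not show that they were equal.

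Only Slc16a3 and Bnip3 passed under all 16 alternative settings in this comparison. The count was 3 without EXPD4 replicate 3 or without TPA replicate 1, 5 without EXPD4 replicate 1, EXPD4 replicate 2, TPA replicate 2 or CTRL replicate 3, 6 without CTRL replicate 2 and 7 without CTRL replicate 1. Pgk1 missed the threshold in 12 of the 16 settings, the omission of any 1 array among them (adjusted p up to 0.208). Gys1 missed it in 11 and Pkm in 10. Tpi1 and Slc2a1 missed it in 4 each, and Hif1a did on averaging its probe sets (0.24, adjusted p = 0.206).

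Other lists of the pathway show how far the pattern reached. Of 28 further hypoxia targets measured, 9 fell and 2 rose in EXPD4 (median -0.17), and 11 fell and 7 rose in TPA (median -0.22). Car9, the membrane carbonic anhydrase used as a marker of HIF activity, read 7.50, 7.41 and 7.51 in EXPD4 arrays, 6.36 and 6.42 in TPA arrays and 9.29, 9.29 and 9.09 in CTRL arrays. Both TPA arrays were under the background limit. Car9 fell by 1.76 ± 0.08 in EXPD4 (adjusted p = 2.43e-05), and in TPA it was lower by at least 2.75 on the log2 scale. Hmox1, the haem oxygenase, fell by 1.82 in EXPD4 and fell by 3.10 in TPA, and Ero1a, an oxidase of the endoplasmic reticulum, fell by 1.12 in EXPD4 and fell by 1.33 in TPA. Against this direction, the nuclear receptor gene Rora rose by 0.95 in EXPD4 and by 1.57 in TPA, and the transferrin receptor gene Tfrc by 0.48 and 0.53. Bhlhe40, Ccng2, Errfi1, Insig2 and Wsb1 rose in TPA, by 0.62, 0.86, 1.26, 0.50 and 0.67, and did not pass in EXPD4. In EXPD4 relative to TPA, 5 of the 28 were higher and 5 lower (median 0.06). The higher ones were Car9, Hmox1, Hilpda, Car12 and Jmjd6, and the lower ones Rora, Bhlhe40, Ccng2, Errfi1 and Wsb1. None of 9 genes of the HIF machinery, Arnt, Epas1 and Vhl among them, passed in limma in either comparison, with 2 at an unadjusted p under 0.05 in EXPD4 and 3 in TPA.

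The other lists of sugar metabolism are given by their counts, and no test of the difference between lists was run. Among 17 other glycolytic isozymes and transporters, 4 fell and 1 rose in EXPD4, and 3 fell and 3 rose in TPA, with medians of -0.01 and -0.02. The insulin-responsive glucose transporter gene Slc2a4 fell by 0.83 in EXPD4 and fell by 0.59 in TPA, and the mitochondrial glycerol phosphate dehydrogenase gene Gpd2 fell by 0.65 in EXPD4 and fell by 0.76 in TPA. The lactate and pyruvate transporter gene Slc16a1 (MCT1) fell by 0.34 in EXPD4 (adjusted p = 0.0427) and fell by 1.16 in TPA (adjusted p = 8.33e-05). Of 16 genes of the TCA cycle 3 rose and none fell in EXPD4, and 3 rose and 2 fell in TPA. Of 19 genes of the respiratory chain none passed in limma in EXPD4 (3 at an unadjusted p under 0.05, all higher), and 1, Cycs, fell in TPA. In the pentose phosphate pathway, with 6 genes measured, Pgd fell by 0.96 in TPA (adjusted p = 0.000498) and none passed in EXPD4 (2 at an unadjusted p under 0.05). Of 10 genes around pyruvate dehydrogenase 2 rose in EXPD4 and none fell, and 2 rose and 1 fell in TPA, with Pdk2, a pyruvate dehydrogenase kinase, higher by 1.32 in TPA. Of 16 genes of glycogen and gluconeogenesis 2 fell in EXPD4 and none rose, and 2 rose and 1 fell in TPA.

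Of 11 regulators from the MYC and mTORC1 list, 2 rose and 1 fell in EXPD4, and 3 rose and 1 fell in TPA. Txnip, which restrains glucose uptake, read 10.91, 10.89 and 10.77 in EXPD4 arrays, 11.47 and 11.45 in TPA arrays and 9.65, 9.55 and 9.58 in CTRL arrays. The groups were separate, with TPA highest, the opposite order to Slc2a1. Txnip rose by 1.27 ± 0.07 in EXPD4 (2.41-fold, adjusted p = 4.08e-05) and by 1.87 ± 0.08 in TPA (3.65-fold, adjusted p = 2.49e-06). Myc rose by 0.56 in EXPD4 and by 0.95 in TPA, and Sesn2, a stress-induced inhibitor of mTORC1, fell by 1.03 in EXPD4 and by 1.31 in TPA.

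**Figure D4:**
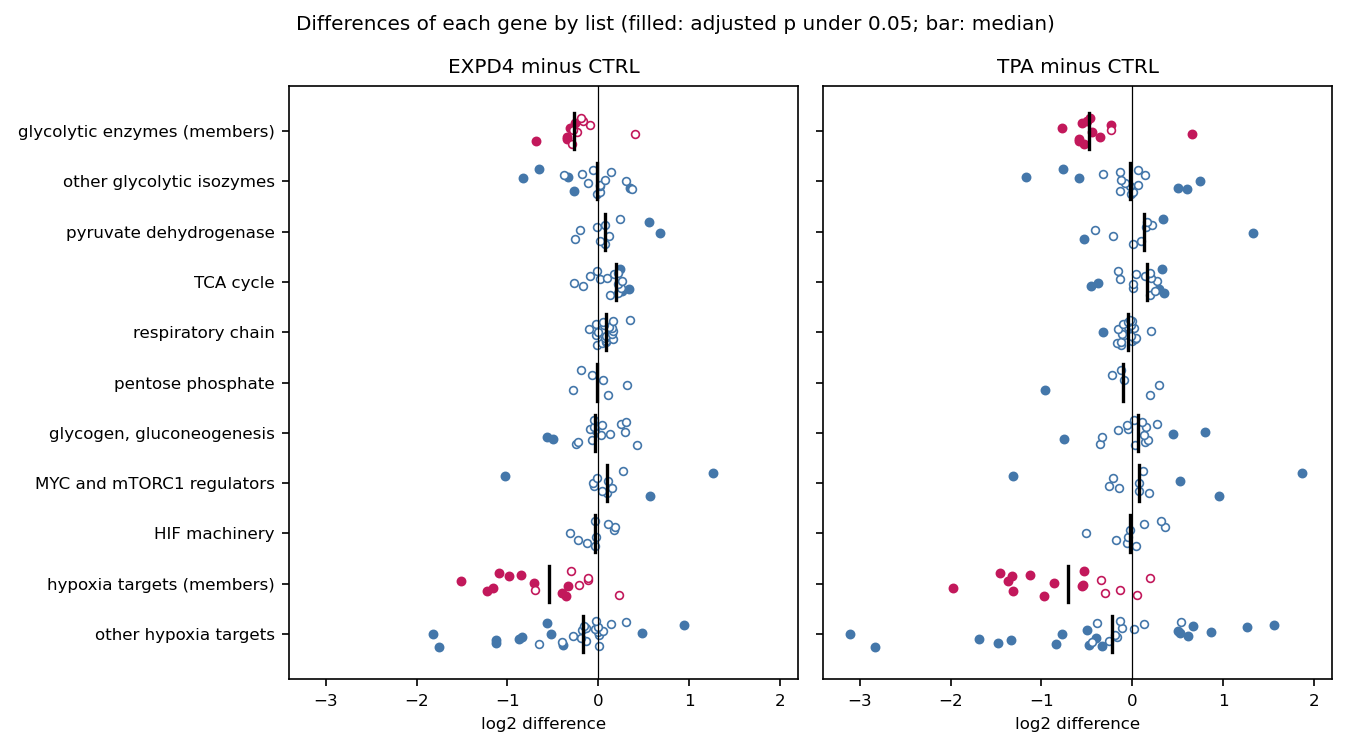
Log2 difference of each measured gene in the pathway lists, 1 row per list with its median as a bar, filled points at an adjusted p under 0.05 and the genes described here in red, for EXPD4 minus CTRL and TPA minus CTRL. Medians lie at -0.54 and -0.70 for the hypoxia targets outside glycolysis, against 0.20 and 0.17 for the TCA cycle.

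Markers of cell states and cell types were read on the same arrays, and some of them differed between the groups. Of 6 measured stress and wound keratinocyte genes 2 fell in EXPD4 and 6 in TPA, and their summed linear signal ran from 26031 to 27905 in EXPD4 arrays, from 11367 to 14335 in TPA arrays and from 32120 to 33748 in CTRL arrays. Of 6 suprabasal genes 2, Krt1 and Krt10, rose in EXPD4 and in TPA, and the summed signal ran from 19074 to 20773 in EXPD4 arrays, from 17656 to 19080 in TPA arrays and from 7959 to 11969 in CTRL arrays; the other 4 did not pass, and 2 of the 6 were under the background limit on every array. Of 6 basal genes 2 fell in EXPD4 and 2 in TPA. Their summed signal ran from 40973 to 41208 in EXPD4 arrays, from 42275 to 43487 in TPA arrays and from 43735 to 45546 in CTRL arrays. Itga6, a gene of this list and the surface protein of the gate, fell by 0.47 in EXPD4 and fell by 0.69 in TPA. Endothelial markers stood high in CTRL replicate 1, with Cdh5 at 9.73, against 7.02 and 6.86 in the other CTRL arrays, and the summed signal of the 6 ran from 542 to 855 in EXPD4 arrays, from 426 to 459 in TPA arrays and from 483 to 1762 in CTRL arrays. Of 5 proliferation genes none passed in EXPD4 in limma (1 at an unadjusted p under 0.05, lower) and 3 fell in TPA, with a summed signal from 7262 to 8054 in EXPD4 arrays, from 5877 to 6193 in TPA arrays and from 7835 to 8910 in CTRL arrays. Of 6 bulge genes Krt15, which basal keratinocytes also express, rose in EXPD4 and in TPA (by 1.23 and 2.38) and Nfatc1 rose in TPA, with Cd34, Lgr5 and Lhx2 under the limit on every array, and the summed signal ran from 2073 to 2605 in EXPD4 arrays, from 3818 to 4072 in TPA arrays and from 1771 to 1993 in CTRL arrays. Of 6 Langerhans cell genes 2 fell in EXPD4 (Epcam and H2-Ab1) and 1 in TPA (H2-Ab1), with Cd207 and Itgax under the limit on every array, and sums from 896 to 1070 in EXPD4 arrays, from 1187 to 1330 in TPA arrays and from 1466 to 2173 in CTRL arrays. Of 7 macrophage and neutrophil genes 2 passed as lower in both, Cd14 and Cxcr2, of which Cxcr2 was under the limit on every array, with sums from 514 to 538 in EXPD4 arrays, from 506 to 512 in TPA arrays and from 561 to 995 in CTRL arrays. In the lists of other cell types, Thy1 (T cells) rose in both comparisons, Krt18 (Merkel cells) fell in both, and Plin2 (sebaceous gland) and Hba-a1 (red blood cells) fell and Dcn (fibroblasts) rose in TPA. Without CTRL replicate 1 the calls among the 33 genes were 14 in EXPD4 and 25 in TPA. The part of any of these markers in the results was not tested.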

How the data were processed

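The authors deposited log2 signals of Affymetrix probe sets, made with RMA per the submitters' processing notes, which give no version, and 45141 probe sets were read from 8 arrays. The probe table of the platform gave 1 symbol to 28898 probe sets, several to 551 and none to 15588, and 104 were array controls. Of the symbols, 161 were not found by gene identifier in the RefSeq table and were kept. Group means of the 17097 genes were estimated from the 8 arrays together in limma 3.58.1 under R 4.3.3 (lmFit, eBayes, 5 residual degrees of freedom), with Benjamini-Hochberg adjustment over all genes and a threshold of 0.05. Probe sets beyond the brightest of a gene were adjusted over all named probe sets. On simulated data at a fold of 1.5 the fit recovered 70%, 52% and 48% of changed genes for EXPD4 minus CTRL, TPA minus CTRL and EXPD4 minus TPA over the 17097 genes. At a fold of 1.2 it recovered 4%, 2% and 2% in the same order. The simulation changed 50 genes at each fold. More genes than that were called in the data, so recovery there can differ. Precision is limited by the number of arrays. The members and lists were chosen with earlier results of these data known. The text names every member, up to 4 called genes of each other list per comparison, and marker genes. It also names each further hypoxia target that rose in EXPD4 or TPA or that passed in EXPD4 minus TPA. Alternatives covered centring, quantile normalization, a filter on dim genes, probe set choice, eBayes options, array weights, a replicate block and leaving out each array.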

Additional observations from a re-analysis of the deposited data

How the results depend on the processing

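With 3, 2 and 3 arrays in EXPD4, TPA and CTRL, and no scanner files used here, small differences near the threshold were unstable. Leaving out 1 array at a time gave 10 to 19 called members in EXPD4 minus CTRL (10 to 18 lower), 21 to 25 in TPA minus CTRL (20 to 24 lower) and 3 to 7 in EXPD4 minus TPA, and 1261 to 2076, 2613 to 3344 and 560 to 922 called genes over all. The medians then ran from -0.29 to -0.22, from -0.51 to -0.45 and from 0.20 to 0.24 for the glycolytic enzymes, and from -0.56 to -0.39, from -0.75 to -0.65 and from 0.16 to 0.25 for the hypoxia targets outside glycolysis, in the same order. With trended robust eBayes 27 members were called in EXPD4 minus CTRL, 26 of them lower. The median of the hypoxia targets was -0.69 in EXPD4 and -0.86 in TPA over the genes above the background limit, -0.46 and -0.58 with probe sets averaged, and -0.67 in TPA after quantile normalization, and that of the enzymes was -0.22 in EXPD4 minus CTRL and 0.19 in EXPD4 minus TPA with probe sets averaged. In EXPD4 minus TPA, 5 members were called after median centring, and 3 members and 511 genes with the arrays of those groups alone. The labels do not say whether equal replicate numbers share a day or litter. Correlations of same-numbered deviations from the group means ran from -0.18 to 0.03. With 2 or 3 arrays per group such deviations are tied to each other, so they cannot settle whether the arrays are paired. With the replicate block 541 genes and 3 members were called in EXPD4 minus TPA, 15 members in EXPD4 minus CTRL and 23 in TPA minus CTRL. Where at least 1 of the probe sets compared was called, other probe sets reversed the sign for Higd1a (0.50 and 0.44 in EXPD4 minus CTRL, 0.55 and 0.30 in TPA minus CTRL, and 0.10 there with probe sets averaged), and in TPA minus CTRL for Pfkl (0.26), Egln1 (-0.47) and Ak4 (0.018, under the background limit), and for Hif1a in EXPD4 minus TPA (-0.13). The sign also differed between probe sets where none was called, among them Pdk1 in TPA minus CTRL (0.31) and EXPD4 minus TPA (-0.26), Egln3 in TPA minus CTRL (0.02), Egln1 in EXPD4 minus CTRL (-0.03) and Pfkl in EXPD4 minus TPA (-0.33). The cause was not tested.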
